A study of Mus musculus with 8 samples.

Results

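The 10 genes described here are the 4 Notch receptors (Notch1, Notch2, Notch3 and Notch4), 3 of their ligands (Jag1, Jag2 and Dll1) and 3 transcriptional effectors (Hes1, Hey1 and Heyl). They were chosen by name and found by Entrez identifier among the 36528 genes listed in each file. The study sequenced polyadenylated RNA of mesothelial cells whose primary tissue was the mouse omentum, in 4 libraries labelled BAP1 KO and 4 labelled WT. BAP1 takes ubiquitin off histone H2A and is a tumour suppressor of the mesothelium. The labels give genotype, cell type and tissue, and leave out strain, age and the design of the knockout. Whether each replicate had its own animal or culture is not said, and the p-values therefore reflect only how far these libraries differ among themselves, which may be technical variation.

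Notch receptors are membrane proteins that are activated by ligands on a neighbouring cell. Ligand binding exposes the receptor to cleavage by an ADAM protease and then by gamma-secretase, and the freed intracellular domain enters the nucleus, where it joins the DNA-binding protein RBPJ and a Mastermind coactivator. The HES and HEY genes are among the best known targets of that complex and encode basic helix-loop-helix repressors. In blood vessels Notch4 is typical of endothelium and Notch3 of smooth muscle and pericytes, while Notch2 is found in many mesenchymal and myeloid cells.

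Libraries held 69.5 to 82.1 M counts in BAP1 KO and 67.1 to 84.9 M in WT, more than the number of reads the labels' protocol states, for a reason not given. Levels of 1 gene between libraries are given in CPM, the count relative to the library total after TMM scaling. Bap1 itself stood at 54.02, 53.05, 51.97 and 53.73 CPM in BAP1 KO and at 63.05, 62.6, 62.9 and 64.2 CPM in WT, or 84.2% of WT on average. The labels do not say how Bap1 was knocked out, and counts over the whole gene do not check the genotype. Among 14 mesothelial markers, Upk3b had 463.7 CPM in BAP1 KO and 462.1 CPM in WT, Upk1b 250.6 and 229.6 CPM, and Wt1 166.0 and 121.2 CPM, whereas Msln (3.06 and 6.95 CPM) and the keratin genes Krt8 (0.793 and 2.35 CPM), Krt18 (4.47 and 11.7 CPM) and Krt19 (3.31 and 3.19 CPM) were low. Markers of macrophages, fibroblasts and smooth muscle were abundant too, as the plot of marker levels shows. A change in bulk RNA does not tell fewer cells of a type from less RNA per cell.

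**Figure D1:**
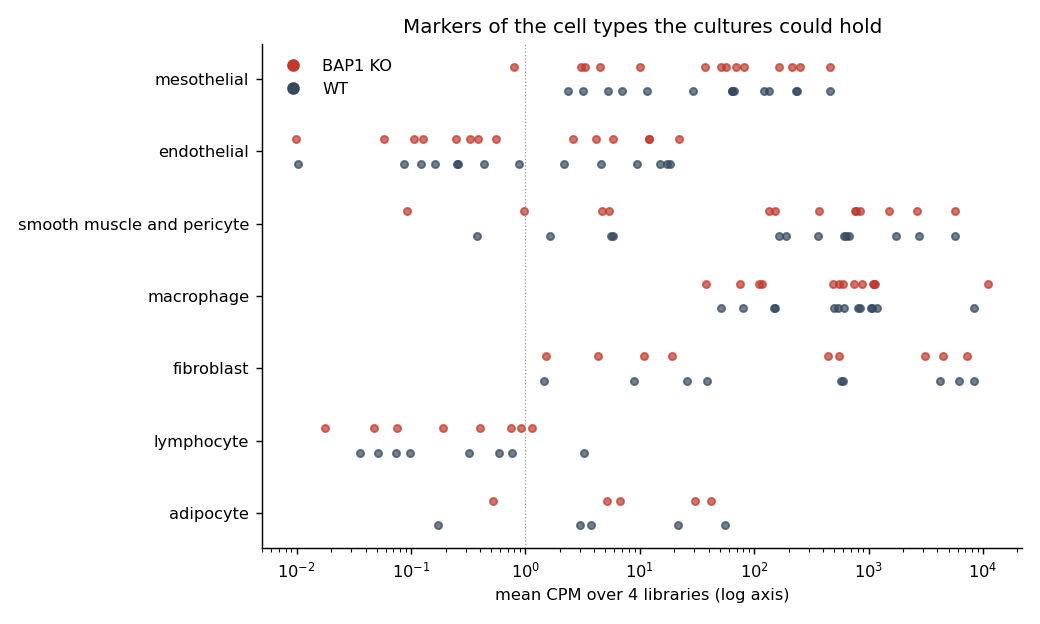
Mean CPM over 4 libraries (log axis) of each marker gene, by cell type list, with BAP1 KO above WT and a dotted line at 1 CPM; means of 0 (Lep in both genotypes, Cldn5 in BAP1 KO) are not drawn. The macrophage list reaches 11030 CPM in BAP1 KO and 8388 CPM in WT with Lyz2, whereas 9 of 15 endothelial and 7 of 8 lymphocyte markers stayed under 1 CPM in both genotypes.

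Members changed in both directions and by modest amounts. All 10 passed the filter on low counts. Notch2 and Notch3 rose, Notch4, Jag1, Dll1 and Hes1 fell, and Notch1, Jag2, Hey1 and Heyl did not pass (edgeR quasi-likelihood test, adjusted p below 0.05 over 16929 genes). That is 6 of 10 members, or 60%, where 61.1% of all genes tested were called, 29% as higher and 32.1% as lower in BAP1 KO. The share of members called is thus near that of all genes. The median log2 fold change of the members was -0.17, beside -0.0046 for all genes tested, and the median size without sign was 0.26, beside 0.18. In 7 of the 10 the CPM ranges of the genotypes did not overlap, against 53.8% of all genes.

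**Figure D2:**
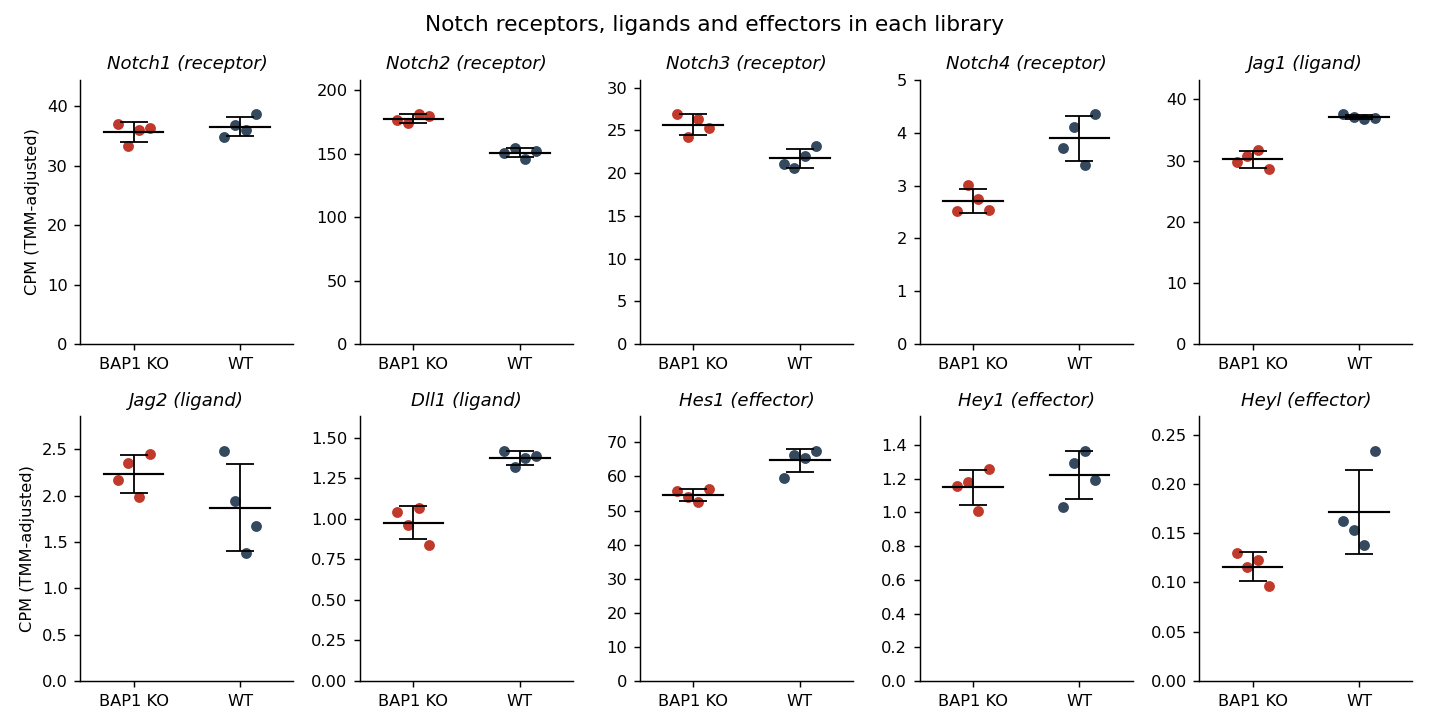
CPM of each member in each library (points), with the mean and SD over n = 4 libraries per genotype, BAP1 KO left of WT; each panel has its own axis from 0. The ranges separate for Notch2 and Notch3, with BAP1 KO above WT, and for Notch4, Jag1, Dll1, Hes1 and Heyl, with BAP1 KO below WT, and overlap for Notch1, Jag2 and Hey1.

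The order of the members by level, in the authors' size-factor-adjusted RPKM, which take the length of each gene into account, was led by the same 5 genes in both genotypes. Hes1 had the highest level, 31.5 ± 1.0 in BAP1 KO and 37.0 ± 2.0 in WT (SD, n = 4 each). Notch2 was the most abundant receptor, at 16.8 ± 0.31 in BAP1 KO and 14.2 ± 0.34 in WT, and Jag1 the most abundant ligand, at 5.48 ± 0.25 and 6.67 ± 0.061. Notch1 (3.74 ± 0.18 in BAP1 KO, 3.81 ± 0.17 in WT) and Notch3 (3.22 ± 0.16 and 2.70 ± 0.15) followed. For each of these 5, the range over the 4 libraries did not overlap that of the next gene in the order. The next genes were low and close to each other. In BAP1 KO the ranges of Hey1 (mean 0.474) and Jag2 (0.431) overlapped, as did those of Jag2 and Notch4 (0.383). In WT, Notch4 (0.547), Hey1 (0.50), Jag2 (0.357) and Dll1 (0.328) each overlapped the next. Dll1 in BAP1 KO, at 0.235, lay below Notch4, and Heyl was last in both genotypes, at 0.0255 in BAP1 KO and 0.0374 in WT.

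**Figure D3:**
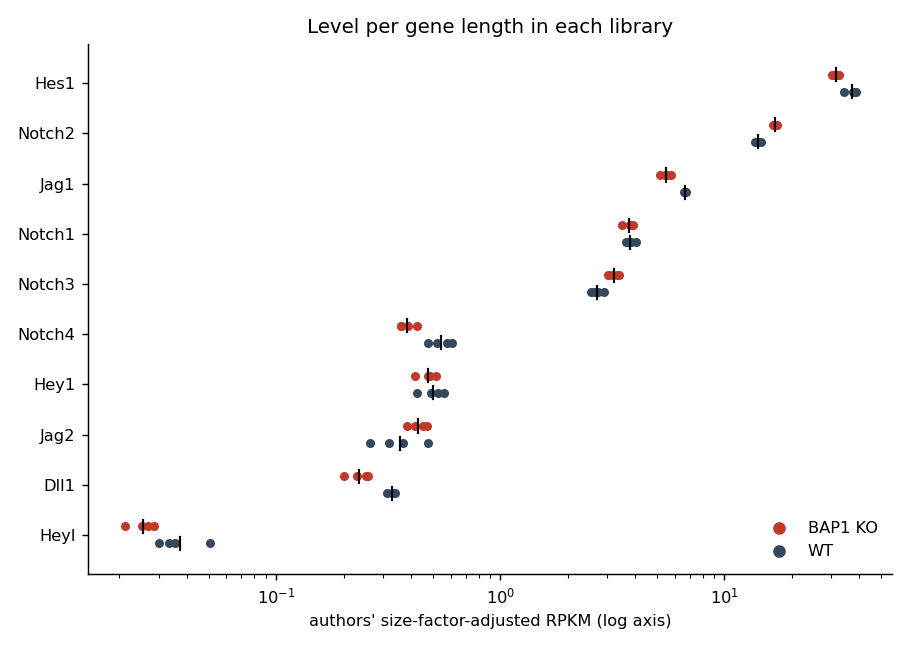
Level of each member per gene length in the authors' size-factor-adjusted RPKM (log axis), with 1 point per library, a tick at the mean of n = 4, and BAP1 KO drawn above WT. Hes1, Notch2, Jag1, Notch1 and Notch3 lie above 2.5 in every library, and the other members below 0.62.

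The promoters of 4 members that passed the test are shown, since Notch2 and Notch3 rose while Jag1 and Notch4 fell. They are RefSeq sequences on GRCm38.p6, 250 bases before to 50 after the start site in the RefSeq table, which for Notch3 and Notch4 lies a few bases inside the gene bounds given further on, 5′ to 3′ on the gene's strand, with CG dinucleotides in capitals. Windows were at hand for 7 of the 10 members, named Notch1, Notch2, Notch3, Notch4, Jag1, Jag2 and Dll1, with 2 windows for Dll1. The start sites of the Jag2 window and of 1 Dll1 window lie well inside the gene bounds.
Notch2, chr3:98013288-98013587, plus strand: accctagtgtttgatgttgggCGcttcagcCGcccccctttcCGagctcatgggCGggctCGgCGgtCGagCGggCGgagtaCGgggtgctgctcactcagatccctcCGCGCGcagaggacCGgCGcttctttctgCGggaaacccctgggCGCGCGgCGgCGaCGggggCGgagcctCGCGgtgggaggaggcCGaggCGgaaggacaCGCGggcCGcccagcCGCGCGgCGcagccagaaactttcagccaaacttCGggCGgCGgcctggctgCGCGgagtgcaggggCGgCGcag
Notch3, chr17:32166841-32167140, minus strand: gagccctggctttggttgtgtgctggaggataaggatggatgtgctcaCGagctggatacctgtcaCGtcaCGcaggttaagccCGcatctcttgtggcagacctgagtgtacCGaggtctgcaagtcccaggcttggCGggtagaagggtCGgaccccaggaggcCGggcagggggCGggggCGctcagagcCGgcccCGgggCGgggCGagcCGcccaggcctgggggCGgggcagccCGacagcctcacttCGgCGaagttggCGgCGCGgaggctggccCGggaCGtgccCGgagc
Jag1, chr2:137116471-137116770, minus strand: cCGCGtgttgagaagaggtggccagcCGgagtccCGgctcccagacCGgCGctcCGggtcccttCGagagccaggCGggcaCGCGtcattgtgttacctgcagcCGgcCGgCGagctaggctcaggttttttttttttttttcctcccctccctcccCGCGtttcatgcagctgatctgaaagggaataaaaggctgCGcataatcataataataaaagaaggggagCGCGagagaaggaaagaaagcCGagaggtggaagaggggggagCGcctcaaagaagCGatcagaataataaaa
Notch4, chr17:34564045-34564344, plus strand: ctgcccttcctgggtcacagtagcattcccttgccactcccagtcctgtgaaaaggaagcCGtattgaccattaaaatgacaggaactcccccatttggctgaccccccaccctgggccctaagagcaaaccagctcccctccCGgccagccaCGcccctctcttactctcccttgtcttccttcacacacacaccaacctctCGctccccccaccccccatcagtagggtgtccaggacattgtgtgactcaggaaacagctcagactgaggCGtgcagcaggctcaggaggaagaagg
The Notch2 window holds 41 CG dinucleotides, more than or as many as 97% of 32851 such windows of all genes, whose median is 7. Notch3 holds 25 and Jag1 22, while Notch4 holds 5, a count that 43.6% of windows do not exceed. At least 1 CG is present in 94.6% of all windows. The letters TGGGAA, the core bound by RBPJ, searched on both strands, were in 0 of the 8 member windows and in 25.6% of all windows. The E box CACGTG was in 0 member windows as well, against 7.15% of all. The N box CACNAG, letters that HES proteins can bind, was found on either strand in the windows of Notch1 (3 matches, of which 2 overlap each other), Notch3 (2), Notch2 (1) and 1 of the 2 of Dll1, against 42.5% of all windows. A match describes letters and is no evidence of binding.

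Among the receptors, Notch2 (Entrez 18129, chr3:98013538-98150367; coordinates are of the whole gene on GRCm38, from RefSeq) had 176.3, 173.9, 181.1 and 179.5 CPM in BAP1 KO libraries, against 150.8, 154.6, 145.8 and 152.2 CPM in WT libraries. Every BAP1 KO library lay above every WT library. This gave a log2 fold change of 0.24 ± 0.02 (SE; adjusted p = 2.8e-10 by edgeR), or 1.18-fold. Notch2 shares 541 bp of exon with the transcript Gm42820 on the same strand.

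Notch3 (Entrez 18131, chr17:32120820-32166896) changed in the same direction. It had 26.9, 24.2, 26.35 and 25.3 CPM in BAP1 KO, against 21.1, 20.6, 22.0 and 23.2 CPM in WT, without overlap. The log2 fold change was 0.24 ± 0.04 (SE; edgeR adjusted p = 7.7e-06). Of the 13 other markers of smooth muscle and pericytes, 3 rose, 6 fell and 4 did not pass. Their summed level was 12780 to 12980 CPM in BAP1 KO and 12630 to 13120 CPM in WT. The 3 that rose were Myh11 (838.6 CPM in BAP1 KO and 667.2 CPM in WT), Cnn1 (777.6 and 611.9 CPM) and Actg2 (765.6 and 634.5 CPM). Des, Smtn and Abcc9 were among those that fell, and Acta2, Tagln and Kcnj8 among those that did not pass. Of genes typical of pericytes, Pdgfrb had 366.2 CPM in BAP1 KO and 363.9 CPM in WT, Mcam fell to 134.4 CPM, against 165.1 CPM, Cspg4 to 0.970 CPM, against 1.63 CPM, and Rgs5 to 0.0920 CPM, against 0.374 CPM. The part of smooth muscle cells and pericytes in the change of Notch3 was not tested. Exons of Notch3 overlap Gm17276 on the opposite strand over 488 bp, and without strand information reads of the 2 cannot be told apart.

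Notch4 (Entrez 18132, chr17:34564286-34588543) fell by the largest amount of the members that passed. It had 2.53, 3.004, 2.75 and 2.54 CPM in BAP1 KO, against 3.71, 4.11, 3.39 and 4.35 CPM in WT. The genotypes did not overlap, on 175 to 234 counts per BAP1 KO library and 246 to 349 per WT library. On the log2 scale the change was -0.53 ± 0.09 (SE; edgeR adjusted p = 7.9e-06), which puts BAP1 KO at 69.5% of WT. Endothelial markers moved as well. Of 15 listed, 4 rose, 6 fell, 1 did not pass and 4 were too low to test, and the summed level was 59.7 to 61.2 CPM in BAP1 KO and 68.1 to 70.2 CPM in WT. Falls and rises occurred at higher and at lower levels in the list. Of its genes above 5 CPM, Kdr (12.1 CPM in BAP1 KO and 18.4 CPM in WT), Lyve1 (11.9 and 17.3 CPM) and Vwf (5.80 and 9.41 CPM) fell and Flt1 (21.94 and 15.01 CPM) rose. Between 1 and 5 CPM, Esam fell (4.10 CPM in BAP1 KO and 4.59 CPM in WT) and Egfl7 rose (2.58 and 2.16 CPM). These 2 calls held under 5 and 12 of 16 alternatives. The other defining genes named here were under 1 CPM, with Pecam1 at 0.382 CPM in BAP1 KO and 0.435 CPM in WT, Cdh5 at 0.327 and 0.872 CPM, and Tie1 at 0.107 and 0.0876 CPM. At this low level Cdh5 and Tek fell, whereas Erg (0.548 CPM in BAP1 KO and 0.2575 CPM in WT) and Sox18 (0.245 and 0.121 CPM) rose. The ranges of Tek overlapped, on 4 to 17 counts per BAP1 KO library and 9 to 26 per WT library. Its call held under 9 of 15 alternatives. Whether these cells have a part in the fall of Notch4 was not tested.

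Notch1 (Entrez 18128, chr2:26457902-26503822), the receptor best known from T cell leukaemia, had 37.0, 33.3, 36.1 and 36.3 CPM in BAP1 KO, against 34.8, 36.9, 36.0 and 38.7 CPM in WT. The genotypes overlapped. The log2 fold change was -0.04 ± 0.04 with a 95% interval of -0.11 to 0.04 (edgeR adjusted p = 0.38). Once each library's trends with GC content and gene length were removed it was -0.12 and passed (edgeR adjusted p = 0.00051), and over all alternatives the adjusted p ran from 0.00051 to 0.91. Leaving out 1 library gave values between -0.06 (WT replicate 1 left out) and -0.0056 (BAP1 KO replicate 2 left out), none past the threshold. Exons of Notch1 overlap 0610009E02Rik over 1068 bp and Gm13568 over 414 bp, both on the opposite strand.

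Of the summed receptor level per length, Notch2 made up 68.7 to 70.3% in BAP1 KO and 65.5 to 67.7% in WT. Notch4 made up 1.47 to 1.82% and 2.31 to 2.80%. The sum of the 4 receptors was 23.4 to 24.6 in BAP1 KO and 20.7 to 21.8 in WT, in the authors' size-factor-adjusted RPKM. These shares are descriptions and were not tested.

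Ligands fell where they passed the test. Jag1 (Entrez 16449, chr2:137081451-137116520), which is mutated in Alagille syndrome in humans, had 29.8, 30.8, 31.8 and 28.5 CPM in BAP1 KO, against 37.6, 37.1, 36.8 and 36.9 CPM in WT. All BAP1 KO libraries were below all WT libraries, and the WT values lay within 1 CPM of each other. Jag1 thus changed by a log2 fold of -0.29 ± 0.03 (SE; edgeR adjusted p = 8.5e-09), or 81.5% of the WT level.

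Dll1 (Entrez 13388, chr17:15367354-15376932), a ligand of the Delta type, had 1.04, 0.963, 1.07 and 0.841 CPM in BAP1 KO, against 1.42, 1.32, 1.38 and 1.39 CPM in WT. The ranges did not overlap, although the counts were low, 61 to 87 per BAP1 KO library and 96 to 112 per WT library. Its log2 fold change was -0.49 ± 0.13 (SE; edgeR adjusted p = 0.0017). Exons of Dll1 overlap A930024N18Rik on the opposite strand over 867 of 4219 bp.

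Jag2 (Entrez 16450, chr12:112907803-112929812), the paralogue of Jag1, had 2.17, 2.35, 1.99 and 2.45 CPM in BAP1 KO, against 2.48, 1.94, 1.38 and 1.67 CPM in WT. WT replicate 1 was above every BAP1 KO library and the other 3 WT libraries below all of them. The log2 fold change was 0.26 ± 0.13 with a 95% interval of -0.0019 to 0.53 (edgeR adjusted p = 0.08). Without WT replicate 1 it was 0.42 and passed (edgeR adjusted p = 0.0042), and without BAP1 KO replicate 3 it was 0.32 and passed as well (edgeR adjusted p = 0.046). With every gene tested, however low, it was 0.26 (edgeR adjusted p = 0.045). The adjusted p ran from 0.0042 to 0.32 over all alternatives.

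**Figure D4:**
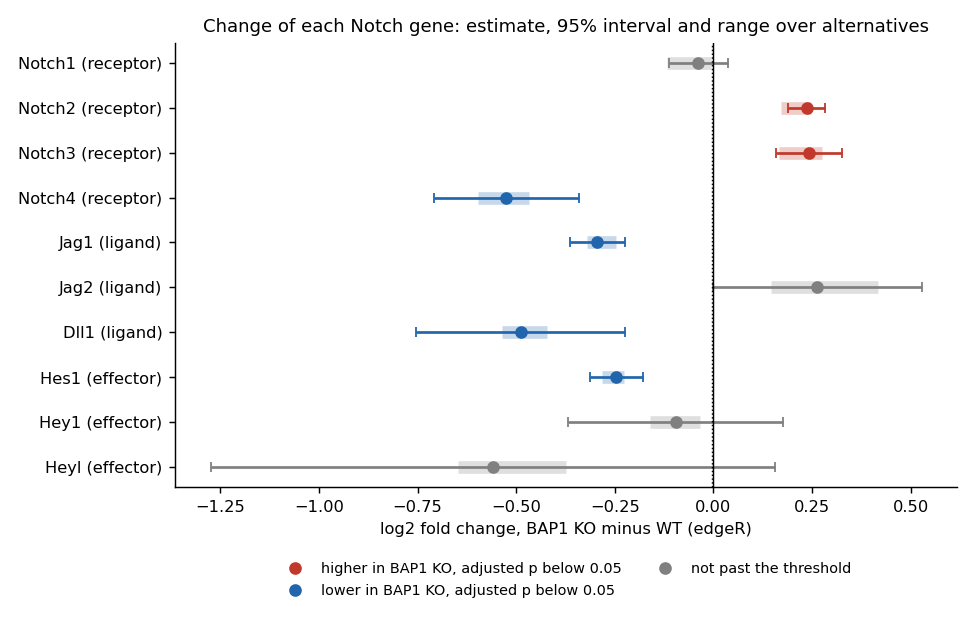
Log2 fold change of each member (BAP1 KO minus WT, points) with its 95% interval (thin bars) and the range over 16 alternative analyses (15 for Heyl; wide pale bars); the solid line marks 0 and the dotted line the median of all genes tested, -0.0046. Intervals of Notch2 and Notch3 lie above 0, those of Notch4, Jag1, Dll1 and Hes1 below 0, and those of Notch1, Jag2, Hey1 and Heyl include 0.

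Among the effectors, Hes1 (Entrez 15205, chr16:30065357-30067796), a repressor that many cell types express and that also represses its own gene, had 55.7, 53.9, 52.6 and 56.2 CPM in BAP1 KO, against 59.7, 66.2, 65.5 and 67.5 CPM in WT. The genotypes did not overlap, and WT replicate 1 was the closest to BAP1 KO. The log2 fold change was -0.25 ± 0.03 (SE; edgeR adjusted p = 1.4e-07), or 84.4% of WT.

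Hey1 (Entrez 15213, chr3:8663359-8667038), an effector known from the heart and vessels, had 1.155, 1.18, 1.01 and 1.255 CPM in BAP1 KO, against 1.035, 1.29, 1.365 and 1.19 CPM in WT, with overlap. The log2 fold change was -0.10 ± 0.13 with a 95% interval of -0.37 to 0.18 (edgeR adjusted p = 0.55), so that a fall as large as that of Hes1 lies within the interval. Without BAP1 KO replicate 3, WT replicate 3 or WT replicate 2 it was -0.03, -0.04 and -0.07, and without WT replicate 1 it was -0.16, none of which passed. Heyl (Entrez 56198, chr4:123233556-123249870), a related gene of vessel walls, was barely detected, with 7 to 10 counts per BAP1 KO library and 10 to 18 per WT library. It had 0.13, 0.116, 0.123 and 0.0965 CPM in BAP1 KO, against 0.163, 0.153, 0.138 and 0.234 CPM in WT. The ranges did not overlap, but the log2 fold change of -0.56 ± 0.35 did not pass (edgeR adjusted p = 0.17), and its 95% interval of -1.28 to 0.16 is wide at this depth.

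Summed marker RNA of some cell types differed between the genotypes beside these changes, and that of others overlapped. The 13 macrophage markers (6 rose, 6 fell, 1 did not pass) summed to 17570 to 18120 CPM in BAP1 KO and 15200 to 15530 CPM in WT. The difference between these sums rests on Lyz2, at 11030 CPM in BAP1 KO and 8388 CPM in WT. The 9 fibroblast markers (8 fell, 1 did not pass) summed to 15470 to 16050 CPM in BAP1 KO and 19280 to 20650 CPM in WT. Most of these sums is collagen RNA, of Col1a1 (7270 CPM in BAP1 KO and 8351 CPM in WT), Col1a2 (4476 and 6111 CPM) and Col3a1 (3094 and 4197 CPM). The 14 mesothelial markers (5 rose, 7 fell, 2 did not pass) summed to 1406 to 1418 CPM in BAP1 KO and 1419 to 1448 CPM in WT. Of 6 adipocyte markers 4 rose and 1 fell (83.7 to 87.1 CPM in BAP1 KO, 82.8 to 85.0 CPM in WT), with Lep at 0. Of 8 lymphocyte markers 2 rose (Cd2 and Cd79a) and 1 fell (sums of 3.25 to 3.67 CPM in BAP1 KO, 5.08 to 5.34 CPM in WT). The lower sum in BAP1 KO rests on Cd4, the 1 that fell, at 1.135 CPM in BAP1 KO and 3.27 CPM in WT. The other 7 were under 1 CPM in both genotypes. The part of these cell types in the changes of the members was not tested.

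The rest of the pathway also moved both ways. Of 73 other genes listed by role, 66 were tested, and of these 23 rose, 21 fell and 22 did not pass. The share called was 66.7%, beside 61.1% of all genes tested, and the median log2 fold change was 0.0037.

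Ligands outside the members showed the widest spread. Dlk2 and Dlk1 encode relatives of the Notch ligands that lack the receptor-binding DSL domain and have been described as inhibitors of Notch. Dlk2 rose to 2.85 ± 0.22 CPM in BAP1 KO, against 0.986 ± 0.14 CPM in WT, a log2 fold change of 1.53 ± 0.12 (SE). Dlk1, an inhibitor of fat cell formation, fell to 12.3 ± 0.54 CPM in BAP1 KO, against 21.6 ± 0.91 CPM in WT (-0.81 ± 0.04). Exons of Dlk2 overlap Abcc10 on the opposite strand over 51 bp. The ligands Dll3 and Dll4 were too low to test, with Dll4 at 34 counts over the 4 BAP1 KO libraries and 22 over the 4 WT libraries. Dll3 had 3 counts in BAP1 KO and 20 in WT, and passed without a filter on low counts (edgeR adjusted p = 0.019).

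Of 8 enzymes that glycosylate the receptors, 4 fell, 1 rose and 3 did not pass. Mfng (Manic fringe), 1 of the 3 fringe enzymes that extend O-fucose on the receptor, fell to 2.62 ± 0.071 CPM in BAP1 KO, against 5.44 ± 0.35 CPM in WT (log2 fold change -1.06 ± 0.08, SE). Rfng (Radical fringe) fell as well (-0.63 ± 0.05), while Lfng (Lunatic fringe) rose to 97.1 ± 4.4 CPM in BAP1 KO, against 81.2 ± 2.9 CPM in WT (0.26 ± 0.03). Poglut1, which adds O-glucose to the receptor, and Xxylt1, which adds a further xylose to the xylose on that glucose, fell by 0.49 ± 0.03 and 0.55 ± 0.03 on the log2 scale. Pofut1, which adds the fucose itself, had 68.5 CPM in BAP1 KO and 67.9 CPM in WT (edgeR adjusted p = 0.70), and Gxylt1 and Eogt did not pass either.

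The 9 listed genes of receptor cleavage split into 3 that rose, 3 that fell and 3 that did not pass. The 2 ADAM proteases moved in opposite directions. Adam17 rose to 204.1 ± 3.8 CPM in BAP1 KO, against 167.6 ± 1.4 CPM in WT (log2 fold change 0.28 ± 0.02, SE), and Adam10 fell to 288.6 ± 10 CPM, against 324.8 ± 10 CPM (-0.17 ± 0.02, but -0.08 with GC and length trends removed). Psen2, a catalytic subunit of gamma-secretase, fell as well (-0.31 ± 0.03). The subunit Ncstn rose by 0.09 ± 0.02, and Furin, Aph1a and Psenen did not pass. Exons of Adam17 overlap Iah1 over 311 bp and those of Ncstn overlap Copa over 195 bp, both on the opposite strand. Those of Aph1a overlap Car14 on the opposite strand over 445 bp. The accessory subunits Aph1b (-0.69 ± 0.05) and Aph1c (0.37 ± 0.05) are uncertain, since the 2 genes resemble each other closely and only uniquely aligning reads were counted.

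Ubiquitin ligases that drive uptake of bound ligand gave 3 rises, 0 falls (edgeR, 0 in DESeq2 and 1 at an unadjusted p below 0.05) and 2 that did not pass. Neurl1a, Neurl1b and Mib1 rose by 0.27 ± 0.06, 0.23 ± 0.06 and 0.15 ± 0.03 on the log2 scale. Mib2 and Neurl3 did not pass. Exons of Neurl1a overlap another transcript of the same strand over 690 bp.

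Among 9 tested genes of the nuclear complex, 5 rose, 3 fell and 1 did not pass. The histone acetyltransferases Ep300 and Crebbp rose by 0.24 ± 0.02 and 0.22 ± 0.03, and the coactivator Maml1 by 0.22 ± 0.03, with smaller rises of Maml2 (0.13 ± 0.03, and 0.20 with GC and length trends removed) and Kat2a (0.12 ± 0.03). Snw1 did not pass, and its exons overlap Slirp on the opposite strand over 2914 of 6586 bp. Another acetyltransferase, Kat2b, fell (-0.17 ± 0.03, but -0.10 with those trends removed), and so did Maml3 (-0.36 ± 0.07). Rbpj, through which all 4 receptors act, fell to 43.6 ± 2.1 CPM in BAP1 KO, against 47.0 ± 0.59 CPM in WT (-0.11 ± 0.03; edgeR adjusted p = 0.0057), and by 0.07 with those trends removed.

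Of 14 listed corepressors, 7 rose, 3 fell and 4 did not pass. Spen, which binds RBPJ directly, rose to 78.4 ± 2.4 CPM in BAP1 KO, against 66.9 ± 2.1 CPM in WT (0.23 ± 0.03, but 0.115 with GC and length trends removed), and Ctbp2, of the CtBP corepressors, by 0.12 ± 0.03, with 314 bp of exon shared with Fgfr2. In the Groucho family, Tle5 rose by 0.20 ± 0.02 and Tle2 fell to 1.83 ± 0.075 CPM in BAP1 KO, against 3.48 ± 0.12 CPM in WT (-0.93 ± 0.09). Hdac2 and L3mbtl3 fell by 0.14 ± 0.03 and 0.15 ± 0.04 (0.06 and 0.09 with those trends removed), and Kdm5a, Hdac1, Cir1 and Tle3 did not pass. The rises of Tle1 and Tle4 were small (0.10 and 0.07). Both calls were lost with upper quartile factors and with library totals alone, that of Tle1 also with GC and length trends removed (0.0072) and that of Tle4 without a filter on low counts, while GC and length removal gave 0.14 for Tle4. The Tle1 call was also lost without WT replicate 1 (0.05) and without each of BAP1 KO replicates 2, 3 and 4, and that of Tle4 without any of these or WT replicates 2 and 3, with adjusted p from 0.018 to 0.87 and from 7.2e-05 to 0.16 over all alternatives (edgeR, limma-voom or DESeq2).

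The 14 genes of receptor turnover split into 3 higher, 4 lower and 7 that did not pass. Fbxw7, which marks the intracellular domain for degradation, fell by 0.37 ± 0.04 on the log2 scale, and Cdk8, a kinase that marks it for Fbxw7, rose by 0.30 ± 0.03. The Deltex ligases Dtx4 and Dtx3l fell by 0.27 ± 0.03 and 0.32 ± 0.04; exons of Dtx3l overlap Parp9 over 458 bp. Numbl, a relative of the Notch inhibitor Numb, rose by 0.22 ± 0.04, and shares 85 bp of exon with Gm44641 on its strand. Nrarp, a direct Notch target and feedback inhibitor, had 0.187 ± 0.051 CPM in BAP1 KO and 0.304 ± 0.052 CPM in WT, with overlap (-0.69 ± 0.29; edgeR adjusted p = 0.036), and its exons overlap Gm38287 over 2051 of 2582 bp. That call was lost with DESeq2, without a filter on low counts and without each of BAP1 KO replicates 1 and 3 and WT replicates 1, 3 and 4, with adjusted p from 0.023 to 0.14. Egfl7, an endothelial secreted protein, rose by 0.26 ± 0.10 (edgeR adjusted p = 0.024), a call lost without each of BAP1 KO replicates 2 and 4 and WT replicates 2 and 3. Its exons share 264 bp with Gm20532 on the same strand.

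Other factors related to the effectors gave 3 falls, 0 rises (edgeR, 0 in DESeq2 and 0 at an unadjusted p below 0.05) and 2 that did not pass among 5 tested. Hes6, known in neural cells as an antagonist of Hes1, fell to 12.95 ± 0.75 CPM in BAP1 KO, against 15.4 ± 0.34 CPM in WT (-0.25 ± 0.05). Bhlhe40 and Bhlhe41 fell by 0.18 ± 0.02 and 0.20 ± 0.04, and are best known as repressors of the circadian clock rather than as Notch effectors; 1280 bp of Bhlhe41 exons overlap Gm43909 on the opposite strand. Hey2 and Hes3 did not pass and stood under 1 CPM, and Hes2, Hes5, Hes7 and Helt were too low to test.

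**Figure D5:**
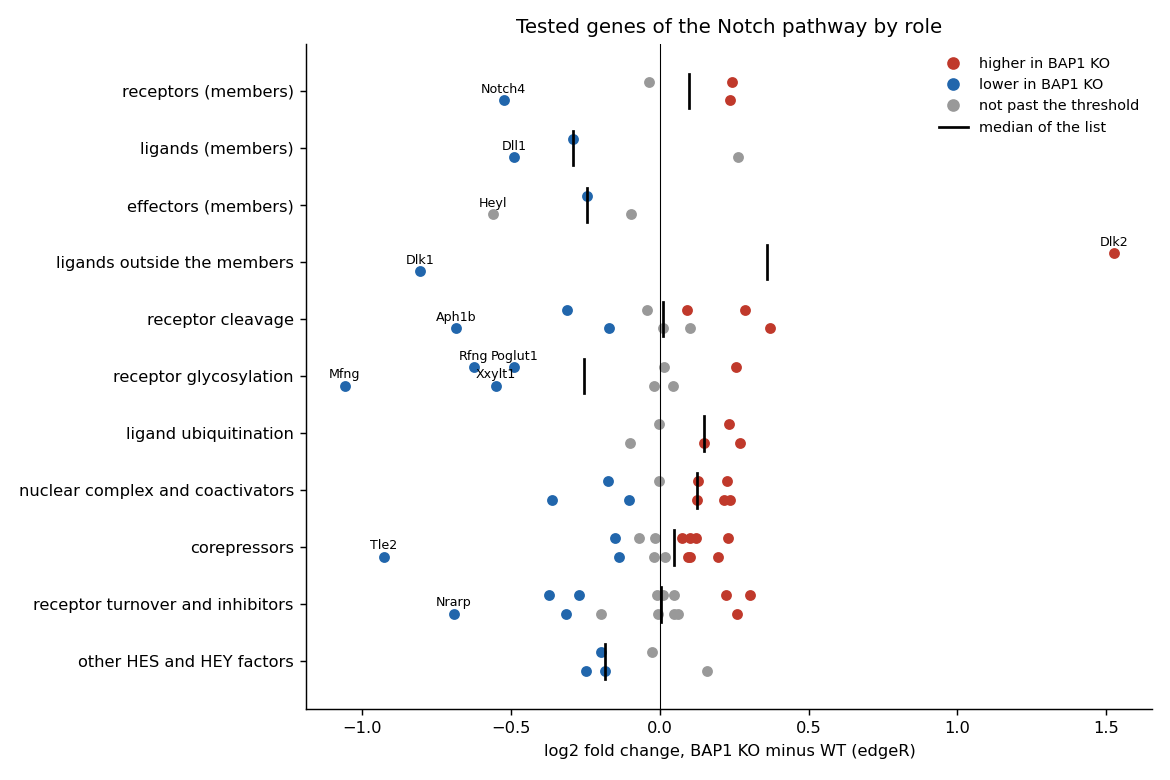
Log2 fold change (BAP1 KO minus WT) of every tested member and other listed pathway gene, by role, with a bar at the median of each list and names at changes beyond 0.45; vertical offsets within a list carry no value. Glycosylating enzymes have a median of -0.26 and ligand ubiquitin ligases one of 0.15, while most lists hold genes on both sides of 0.

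Genes whose log2 CPM followed each member most closely over the 8 libraries were found by Pearson's r as a description. The search covered 12505 genes with a mean of at least 1 CPM. Predicted gene models, RIKEN entries, pseudogenes and identifiers without a symbol were left out of it. Where genotype separates the libraries, many genes come close. For Jag1 the closest was Atp8b1 (r = 0.999), and 1309 genes exceeded 0.95. For Notch2 it was Axl (0.997, with 1155 genes), for Hes1 Shisa5 (0.996, with 241), for Notch3 Rab43 (0.993, with 65), for Dll1 Pde1b (0.991, with 247) and for Notch4 Stk10 (0.989, with 80). The members that did not pass had fewer such neighbours, with Hk1 closest to Heyl (0.966), Hnrnpl to Hey1 (0.957), Zbtb3 to Notch1 (0.945) and Pus10 to Jag2 (0.929).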

How the data were processed

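The 8 libraries, 4 BAP1 KO and 4 WT, were grouped by the genotype label. Per the labels' protocols, RNA went into TruSeq RNA v2 libraries, a kit that does not mark strand, and single ends were read on a HiSeq4000. The submitters' processing notes name GSNAP and GRCm38, without versions, annotation or counting settings. The count column, per the file headers, is the number of reads that align uniquely to a gene model, listed by Entrez identifier. The authors also deposited RPKM adjusted by size factors, and these served here to set levels of different genes side by side. Symbols came from RefSeq (31049 identifiers) and GENCODE (77), and 5402 identifiers went without one.

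The quasi-likelihood F test of edgeR 4.0.16 in R 4.3.3 was fitted to the counts of 16929 genes kept by filterByExpr, with TMM scaling and Benjamini-Hochberg adjustment at 0.05. A positive log2 fold change means higher in BAP1 KO, and SE were taken from the F value. On counts simulated for this comparison over 16929 genes, the test recovered 84% of genes changed by 1.25-fold and 30% of those changed by 1.1-fold. The simulation gave all genes the same biological coefficient of variation (0.029) and left 16729 unchanged. In the data, variation differed by gene and 61.1% of genes were called, so these shares are not detection rates for the data. Alternatives were other scaling (RLE, upper quartile, or library totals), no filter or one at CPM above 1 in 4 libraries, limma-voom (limma 3.58.1), DESeq2 1.42.0, removal of GC and length trends (85.1% of genes had both values), and leaving out each library. Genes and lists were chosen with earlier results of these data known. Named pathway genes are up to 4 per list with the smallest adjusted p, and those needed to name small counts, or to say what a step's other enzymes did, which were chosen after their values were seen. Some pathway genes are not reported here and are in no list or count of pathway genes. Exon overlaps are from GENCODE vM21, and not all of them are given. Levels of different genes depend on the gene lengths the authors used, and intervals cover the spread between these libraries.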

Additional observations from a re-analysis of the deposited data

Results flagged for a closer look

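Of 78 groups of 4 libraries, for 39 genes, 5 held a library far from the other 3, where chance flags about 1 in 20. All 5 were BAP1 KO groups of pathway genes outside the 10 members, and none changed a call when left out. In BAP1 KO replicate 2, Dlk1 stood at 11.5 CPM, against 12.6 in each of the other 3 BAP1 KO libraries, and Tle2 at 1.72 CPM, against 1.85 to 1.88. In BAP1 KO replicate 3, Poglut1 stood at 33.9 CPM, against 32.3 to 32.5, and Dtx4 at 52.5 CPM, against 50.4 to 50.6. In BAP1 KO replicate 1, Adam17 stood at 198.4 CPM, against 205.6 to 206.6.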

How the results depend on the processing

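The calls of 6 members kept their direction and passed under all 16 alternatives, with log2 fold changes of 0.17 to 0.25 for Notch2, 0.17 to 0.28 for Notch3, -0.60 to -0.47 for Notch4, -0.32 to -0.25 for Jag1, -0.54 to -0.42 for Dll1 and -0.28 to -0.23 for Hes1. Of 159 member values, 155 kept their side of the threshold and 4 newly passed it. Notch1 passed with GC and length trends removed (-0.12), and Jag2 passed without a filter on low counts (0.26) and without BAP1 KO replicate 3 (0.32) or WT replicate 1 (0.42), with values from 0.15 to 0.42 over the 8 libraries left out in turn. The cause was not tested. With CPM above 1 in at least 4 libraries, Heyl was not tested. Members called higher numbered 2 to 3 and lower 4 to 5, and other pathway genes 20 to 29 and 20 to 23. All 448 values of the 28 pathway genes with the smallest adjusted p in their lists kept direction and call, though not always size: removing GC and length trends moved Spen and Kat2b by over 1.5 times. Levels per length moved by less than 1 SD with TMM scaling. No paired analysis was possible because the labels give no replicate numbers; those used here follow accession order and pair nothing. Depth limits the low genes, such as Heyl with 35 counts over the BAP1 KO and 52 over the WT libraries.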
